A study of Mus musculus with 26 samples.

Results

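The regions described here are the stretches of chromatin that carried a called H3K27ac signal in every library of a GFP-expressing macrophage line and in no library of its HA-Nur77-expressing counterpart. Called regions from 8 H3K27ac libraries that overlapped by 1 bp or more were joined, and 595 of the 77715 resulting regions met this rule. The members were chosen by their H3K27ac calls in both lines, so their H3K27ac difference between the lines is a description and was not tested. RAW264.7 is a mouse macrophage cell line. Each construct was held in 1 stable line, HA-tagged Nur77 or GFP, and all cells had 50 ng/ml doxycycline for 18 h. Cells of either line were left untreated or given 500 ng/ml lipopolysaccharide (LPS), a bacterial cell wall component that activates macrophages, for 1 h. H3K27ac and RNA polymerase II (Pol II) ChIP-seq had 2 libraries for each line and condition. HA ChIP-seq, in which cells were also cross-linked with DSG, had 3 untreated and 3 LPS libraries, all from the Nur77 line. With 1 line per construct, the construct and other differences between the lines cannot be told apart. Whether replicates are separate cultures is not stated in the labels, so p-values measure only the spread between these libraries.

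H3K27ac is acetylation of lysine 27 of histone H3, laid down by the acetyltransferases p300 and CBP at active promoters and enhancers. Pol II is found at active promoters, along transcribed genes and, at lower levels, at many active enhancers. Nur77 (gene Nr4a1) is an orphan nuclear receptor induced early in stimulated macrophages, which binds the NBRE motif as a monomer. In macrophages many enhancers are opened by the lineage factor PU.1, often together with AP-1 family members.

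In 23 of the 595 members the region covered an annotated transcription start, of 25 genes with 26 RefSeq promoters (250 bases before to 50 after the start, GRCm38.p6, the same chromosomes as mm10). The promoters of the genes that later results turn on are printed 5′ to 3′ along the gene's strand, with Akr1b7, an aldo-keto reductase gene, as an example that holds an NBRE. Capitals mark a match, on either strand, to the AP-1 motif TGANTCA, the NBRE AAAGGTCA, an NF-kB motif, the PU.1 motif GAGGAAGT or the TATA box TATAAA. They lie at chr9:7344147-7344446 (Mmp12, plus strand), chr6:34412112-34412411 (Akr1b7, plus), chr9:42124248-42124547 (Sorl1, minus), chr16:46496918-46497217 (Nectin3, minus), chr6:118066135-118066434 (Rasgef1a, plus) and chr11:33680633-33680932 (Kcnip1, minus).
Mmp12: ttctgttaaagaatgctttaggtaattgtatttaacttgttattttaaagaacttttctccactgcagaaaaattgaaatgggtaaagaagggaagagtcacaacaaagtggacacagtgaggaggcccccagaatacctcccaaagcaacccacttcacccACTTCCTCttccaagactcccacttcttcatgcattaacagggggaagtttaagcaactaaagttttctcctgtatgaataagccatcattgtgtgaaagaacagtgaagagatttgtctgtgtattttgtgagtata
Akr1b7: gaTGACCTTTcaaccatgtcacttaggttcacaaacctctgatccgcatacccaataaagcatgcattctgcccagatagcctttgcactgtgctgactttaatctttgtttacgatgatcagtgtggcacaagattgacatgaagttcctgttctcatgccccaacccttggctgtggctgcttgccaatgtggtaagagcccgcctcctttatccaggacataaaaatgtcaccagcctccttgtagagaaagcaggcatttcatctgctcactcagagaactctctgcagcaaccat
Sorl1: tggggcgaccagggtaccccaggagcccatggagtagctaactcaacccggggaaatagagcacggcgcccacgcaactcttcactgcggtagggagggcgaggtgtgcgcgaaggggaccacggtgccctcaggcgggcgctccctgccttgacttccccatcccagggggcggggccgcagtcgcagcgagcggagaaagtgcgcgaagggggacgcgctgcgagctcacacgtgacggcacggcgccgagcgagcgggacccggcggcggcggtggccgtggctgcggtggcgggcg
Nectin3: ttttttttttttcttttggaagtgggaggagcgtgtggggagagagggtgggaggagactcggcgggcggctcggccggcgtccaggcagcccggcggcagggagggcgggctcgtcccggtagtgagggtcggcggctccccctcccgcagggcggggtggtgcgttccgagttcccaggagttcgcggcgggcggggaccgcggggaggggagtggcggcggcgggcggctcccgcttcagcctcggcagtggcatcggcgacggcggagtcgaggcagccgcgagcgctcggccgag
Rasgef1a: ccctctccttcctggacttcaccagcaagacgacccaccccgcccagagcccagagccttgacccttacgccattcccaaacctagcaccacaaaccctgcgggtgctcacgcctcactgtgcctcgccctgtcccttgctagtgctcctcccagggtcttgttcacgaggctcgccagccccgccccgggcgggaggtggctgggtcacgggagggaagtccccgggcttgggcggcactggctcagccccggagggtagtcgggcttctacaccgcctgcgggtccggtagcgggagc
Kcnip1: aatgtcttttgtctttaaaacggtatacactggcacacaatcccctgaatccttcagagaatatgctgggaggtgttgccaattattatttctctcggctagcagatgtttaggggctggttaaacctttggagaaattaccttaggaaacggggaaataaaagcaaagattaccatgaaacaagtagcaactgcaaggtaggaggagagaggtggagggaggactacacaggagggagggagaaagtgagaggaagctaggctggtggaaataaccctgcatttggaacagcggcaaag

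The 6 promoters differ in base composition. Those of Nectin3 and Sorl1 hold 40 and 37 CpG dinucleotides in 300 bases and are 73.7% and 72.3% G or C. That of Mmp12 holds no CpG and is 38.7% G or C, with 1 PU.1 match. Over the 26 promoters, 4 (15.4%) hold the AP-1 motif, against 7.81% of all 32851 promoters in the table. An NBRE was found in 2 (7.69%), those of Akr1b7 and the non-coding gene Gm46351, against 1.51% of all. The PU.1 motif was in 3 (11.5%), against 3.20%, and the NF-kB motif in 0, against 1.63%. No TATA box match was found in the 26, against 13.6% of all promoters. Over 29 promoters at regions called in all 4 Nur77 and no GFP libraries the AP-1 share was 20.7%, the PU.1 share 17.2%, the NF-kB share 10.3% and the TATA share 13.8%, with 0 NBRE matches. The AP-1 and PU.1 shares were thus above those of all promoters in both sets. These are matches of letters in a fixed window of few promoters, and their number was not tested.

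Mapped tags per library ranged from 22.3 to 28.4 M for H3K27ac, from 11.9 to 23.1 M for Pol II, from 6.41 to 18.2 M for HA and from 14.0 to 23.4 M for the 4 inputs. All values are tags of a called region per 10 M mapped tags, and a region without a call has no value. Tags named scaled were also scaled between libraries. Log2 changes tested with limma come from scaled tags, so they differ from the ratio of unscaled tags printed beside them. All 8 macrophage marker genes had an H3K27ac region in all 8 libraries, and all 4 fibroblast markers had none. Some markers of other cell types (1 of 4 for B cells, 1 of 3 for T cells, 2 of 3 each for epithelium and endothelium) also had a region in all 8 libraries.

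Members were weak and narrow among H3K27ac regions. Their mean over the 4 GFP libraries had a median of 14.1 tags (interquartile range 10.8 to 19.6, range 6.26 to 130.3), against a median of 83.9 in the 27094 regions called in all 8 libraries. The 607 regions called in all 4 Nur77 and no GFP library had a median of 12.6. Median width was 1319 bp in members (511 to 4961), 3080 bp in regions called in all 8 libraries and 1398 bp in the Nur77-only regions. Of the members, 143 had at least 20 tags, 16 at least 50 and 115 fewer than 10. The lowest value deposited for any region in a Nur77 H3K27ac library was 4.94 to 5.60 tags, which sets how small a Nur77 signal may be and still be listed.

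At the edge of the rule, the 3 weakest members lay in Slc36a3, Ift80 and Cog5. The Cog5 region (chr12:31900386-31901059; Cog5 encodes a Golgi tethering subunit) had 6.14, 6.14, 5.92 and 6.85 tags in the 4 GFP libraries. A further 493 regions were called in all 4 GFP libraries and in exactly 1 Nur77 library, with a median GFP mean of 14.5. The strongest of these had no gene within 50 kb (chr12:95290323-95294378), with a GFP mean of 134.6 tags and 14.6 in untreated Nur77 replicate 2. It was followed by regions in Fat3 (122.3 against 9.75), near Gm6291 (94.3 against 23.0), in Gm39256 (85.7 against 16.9) and in Pde1c (81.5 against 7.52). A region just outside the rule can thus be as strong in the GFP line as the strongest members.

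**Figure D1:**
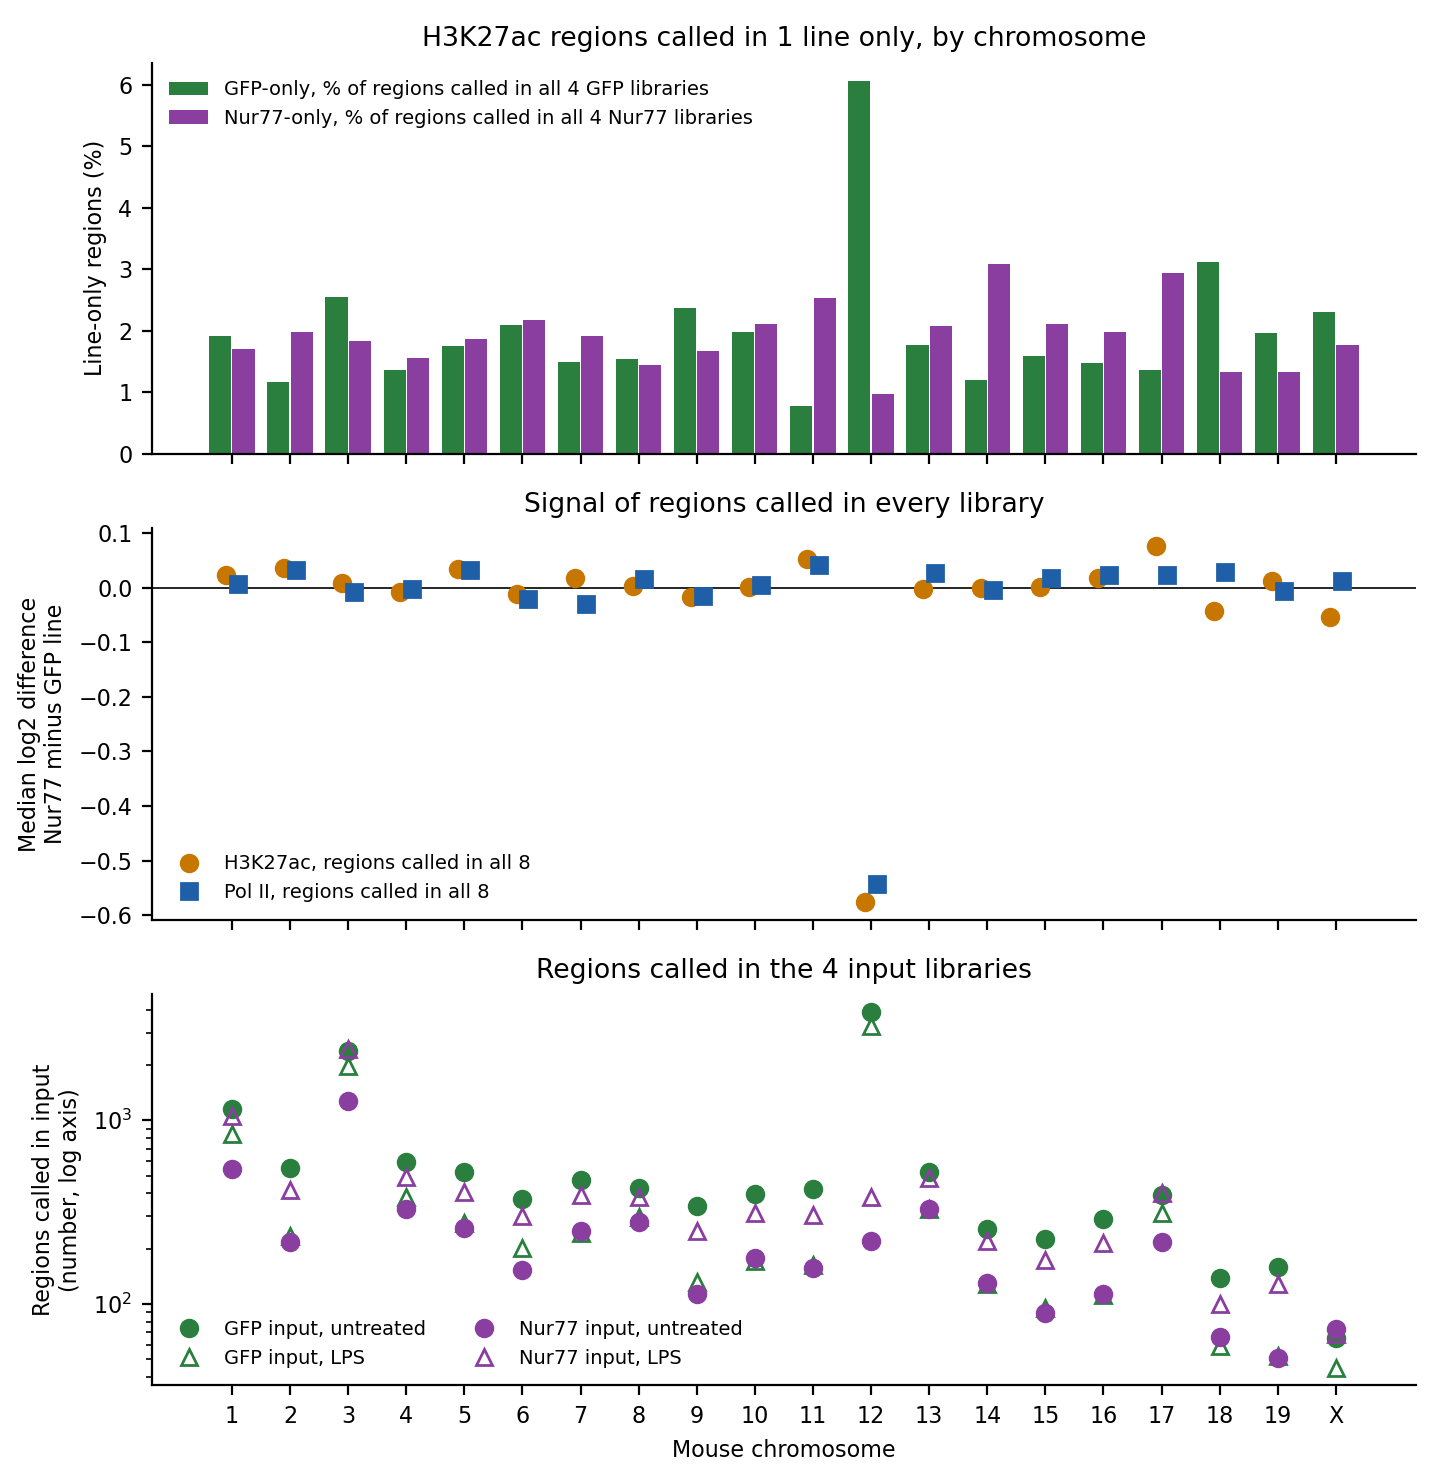
Chromosome by chromosome, the share of line-specific H3K27ac regions (top, %), the median log2 difference between the lines of H3K27ac and Pol II regions called in every library (middle), and the number of regions called in each input library (bottom, log axis). Chromosome 12 stands at 6.06% GFP-only regions, at -0.58 and -0.54 for the log2 medians, and at 3882 and 3250 input regions in the GFP line against 220 and 381 in the Nur77 line.

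Members were unevenly spread over the chromosomes. Chromosome 12 held 99 of the 595 (16.6%), but 5.33% of all regions called in all 4 GFP libraries. Of the regions called in all 4 GFP libraries on chromosome 12, 6.06% were members, while on the other autosomes and X the share ran from 0.782% (chromosome 11) to 3.12% (chromosome 18). Only 12 of the 607 Nur77-only regions lay there.

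On this chromosome other readouts were lower in the Nur77 line as well. In regions called in every library, the median log2 difference (Nur77 minus GFP line) on chromosome 12 was -0.58 for H3K27ac and -0.54 for Pol II. Other autosomes and X lay between -0.05 and 0.08 for H3K27ac and between -0.03 and 0.04 for Pol II. Each of the 12 windows of 10 Mb along chromosome 12 was lower, from -0.69 to -0.48 for H3K27ac and from -0.74 to -0.29 for Pol II, and each window held 1 to 14 members. The input libraries differed there too: 3882 and 3250 regions were called on chromosome 12 in the untreated and LPS inputs of the GFP line, against 220 and 381 in those of the Nur77 line. Of the 50 members that overlapped a region called in input, 34 lay on chromosome 12, and 40 of the 50 overlapped one in GFP input only. What part the chromosome-wide level has in the chromosome 12 members was not tested, and results are given with and without them. Without chromosome 12, 496 members remained, 1.71% of the regions called in all 4 GFP libraries elsewhere.

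**Figure D2:**
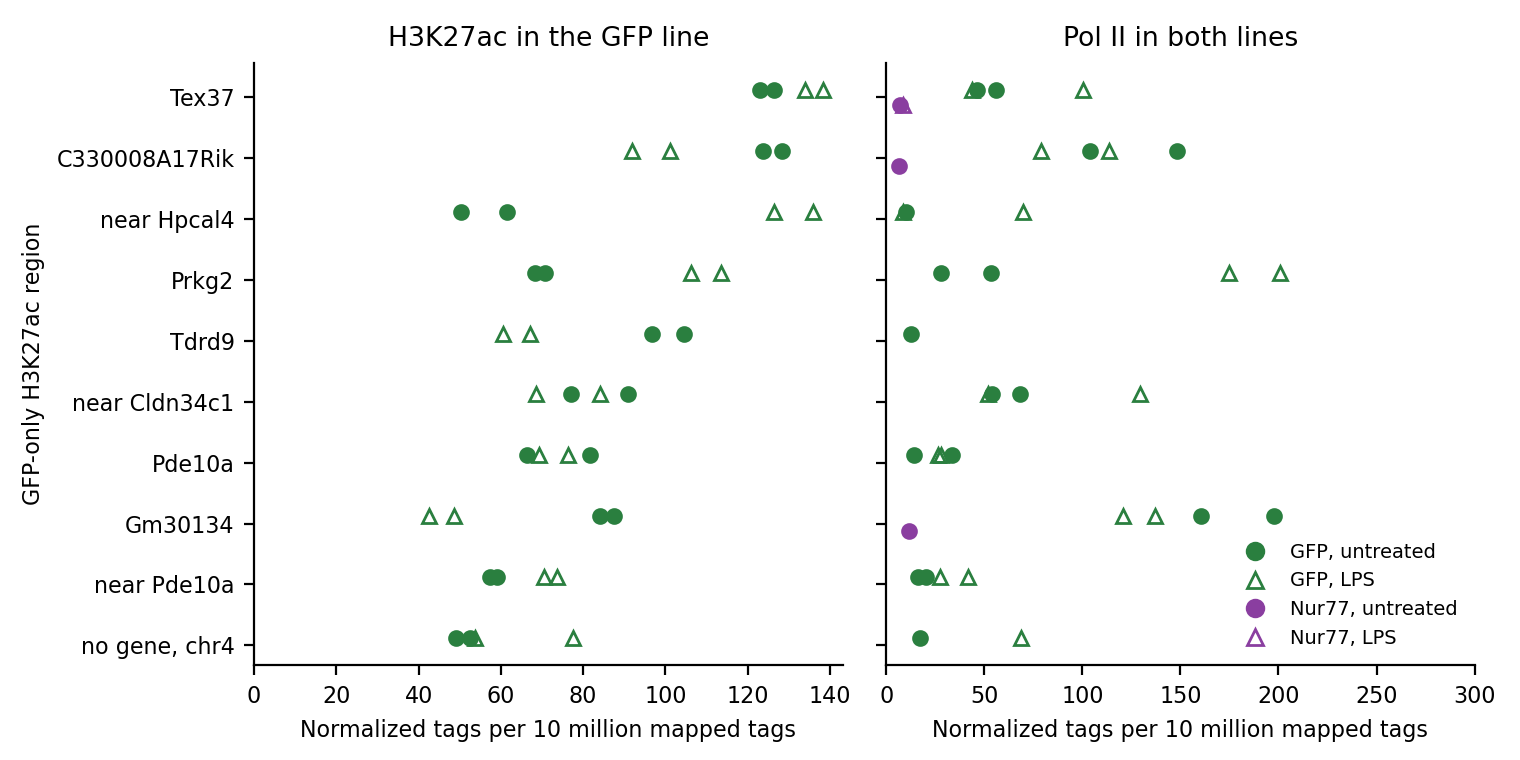
H3K27ac tags in the 4 GFP libraries (left) and Pol II tags in all 8 Pol II libraries (right) at the 10 strongest members, 1 symbol per library with a call. Where a library has no call no symbol is drawn; Nur77 Pol II symbols appear at 3 of the 10 and stay at or under 11.6 tags.

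The strongest member lay over Tex37 (chr6:70934231-70939069), a testis-expressed gene, 15309 bp from the nearest annotated start. Its H3K27ac tags were 122.9 and 126.3 in untreated and 138.3 and 133.9 in LPS-treated GFP cells. Pol II tags over it were 46.3, 55.9, 43.7 and 100.3 in the GFP line, while in the Nur77 line it was called in 2 of 4 Pol II libraries, at 7.16 and 8.55. The Pol II calls of the lines thus did not overlap in level. Next came the long non-coding C330008A17Rik on chromosome 18, with 91.9 to 128.3 H3K27ac tags and 79.0 to 148.3 Pol II tags in the GFP line, and 1 Nur77 Pol II call of 6.61.

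A region 17569 bp from Hpcal4, which encodes a neuronal calcium sensor, rose with LPS. It had 50.4 and 61.4 unscaled H3K27ac tags untreated and 135.9 and 126.4 after LPS. After scaling its log2 change was 1.53 ± 0.13 SE (limma adjusted p = 5e-06). HA was called there in all 3 LPS libraries (27.6, 38.9 and 15.1 tags) and in no untreated library. A region in Prkg2, the gene of a cGMP-dependent kinase, also rose, from 70.8 and 68.3 unscaled tags to 113.6 and 106.3. After scaling its log2 change was 0.96 ± 0.13 SE (limma adjusted p = 9.6e-05). Pol II there was 28.2 and 53.4 untreated and 200.6 and 174.7 after LPS in the GFP line, with no call in the Nur77 line.

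The opposite direction was seen at Gm30134, an unnamed gene model, where H3K27ac fell from 84.2 and 87.4 unscaled tags to 48.5 and 42.6. After scaling its log2 change was -0.59 ± 0.15 SE (limma adjusted p = 0.0075). Pol II at Gm30134 was 120.5 to 197.8 in the GFP line and was called once, at 11.6, in the Nur77 line. The Tdrd9 region on chromosome 12, in a gene of the germline piRNA pathway, had 60.5 to 104.5 H3K27ac tags and 1 Pol II call of 12.8 in 8 libraries. It also overlapped regions called in input. The remaining members of the strongest 10 lay near Cldn34c1 (68.5 to 90.9 tags), in and near Pde10a (66.4 to 81.7 and 57.3 to 73.6) and, with no gene within 50 kb, at chr4:83971555-83975572 (49.1 to 77.5). At these 4 Pol II was called in 2 to 4 GFP libraries and in no Nur77 library.

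Of the 595 members 370 overlapped a gene span extended by 1 kb, 179 had a gene within 50 kb and 46 had none. They touched 349 genes, 256 protein coding and 72 long non-coding. An annotated start lay within 1 kb of 34 members (5.71%), against 32.1% of the regions called in all 8 libraries and 6.10% of the Nur77-only regions. The median distance to the nearest region called in all 8 libraries was 25197 bp, and 128 members (21.5%) had one within 5 kb. The annotation used here holds gene spans and no exons, so exonic and intronic positions were not separated.

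Members had another member as neighbour more often than other regions did. In the ordered list of regions called in all 4 GFP libraries, 121 of 594 placed members (20.4%) had a member as neighbour, against 3.37% of the other regions. Without chromosome 12 these shares were 20.6% and 2.96%. With members chained across gaps of up to 100 kb, 15 clusters of at least 3 held 62 members (10.4%). The Nur77-only regions gave 9 clusters with 27 regions (4.46%), none of more than 3. Without chromosome 12, 13 clusters with 53 members remained (10.7%). No chance level was computed for these counts.

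**Figure D3:**
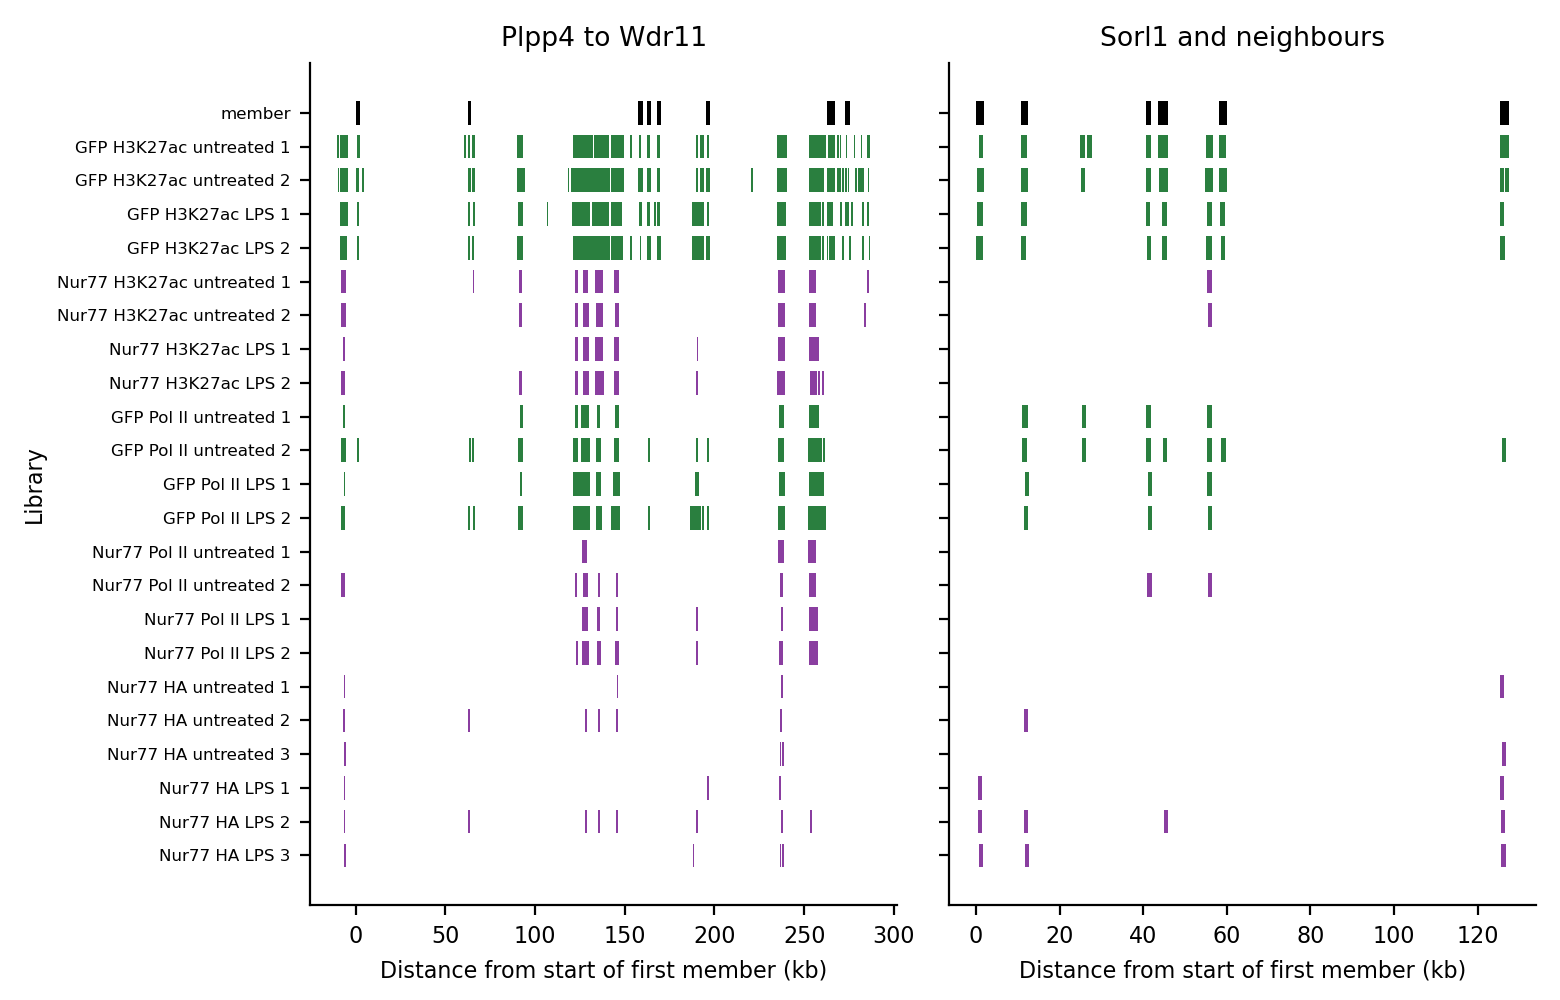
Regions called in each H3K27ac, Pol II and HA library along the 2 clusters with most members, as distance in kb from the start of the first member; black bars are members, green bars GFP-line and purple bars Nur77-line libraries, and regions under 1 kb are drawn 1 kb wide. Between Plpp4 and Wdr11 Nur77-line calls remain between the members, while around Sorl1 the 4 Nur77 H3K27ac libraries hold 1, 1, 0 and 0 calls. By the rule, members have no Nur77 H3K27ac call.

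The cluster with most members spanned 275.8 kb of chromosome 7 (chr7:129338181-129613981), from Plpp4, a lipid phosphatase gene, to Wdr11, with 8 members of 15.0 to 54.3 tags. Across the span the GFP libraries had 19 to 22 H3K27ac regions and the Nur77 libraries 7 to 10. Part of this difference follows from the rule, by which the 8 members had a call in every GFP and no Nur77 library. Of its 24 merged regions 4 were called in all 8 libraries, so the span was not empty in the Nur77 line. The strongest of the 8 lay in Wdr11 (chr7:129600660-129605621; 54.3 tags untreated and 54.4 after LPS on average) and had no Pol II call in either line.

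On chromosome 9 a 127.4 kb span held 6 members over and beside Sorl1, which encodes a sorting receptor for endosomal cargo. All 4 GFP libraries had 7 to 9 H3K27ac regions in the span, and the Nur77 libraries had 1, 1, 0 and 0. Of the 9 merged regions in the span 6 were members, so most of this contrast follows from the rule. The member over the Sorl1 start (promoter printed above) had 46.5 and 39.7 tags untreated and 10.3 and 9.94 after LPS. Pol II over it was 56.4 and 65.4 untreated and 7.34 and 8.22 after LPS in the GFP line, and 10.7 in 1 of 4 Nur77 libraries. H3K27ac and Pol II calls at this start were thus both lower after LPS in the GFP line, with no overlap between the conditions. Pol II regions in the span numbered 4, 7, 3 and 3 in the GFP libraries and 0, 2, 0 and 0 in the Nur77 libraries, with LPS listed after untreated.

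The 5 members around Pde10a, a cyclic nucleotide phosphodiesterase gene, covered 180.6 kb of chromosome 17, with 8.93 to 73.4 tags. GFP Pol II libraries had 6 to 8 regions there and Nur77 libraries 0 to 2, and HA had no peak in any of the 6 libraries. In Cep128, a centriole protein gene on chromosome 12, 5 members had 9.54 to 39.7 tags, with Pol II at 1 of them. Fat3, an atypical cadherin gene, held a cluster of 5 and 1 further member (9.31 to 29.5 tags). None of the 6 had a Pol II region in any library, and at 1 HA was called in 3 libraries. Clusters therefore ranged from spans with Pol II in most GFP libraries (Pde10a) to spans whose members had none (Fat3).

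Smaller clusters included 4 members in 36.8 kb of Cpe, which encodes carboxypeptidase E. No other merged H3K27ac region lay in that span, so its calls in the GFP line alone follow from the rule. Another 3 members lay in 8.61 kb over Cdsn, the corneodesmosin gene, with Pol II at all 3 in the GFP line and at none in the Nur77 line. Mmp12, the macrophage elastase gene, had 3 members in 17.1 kb. The one over its start had 74.2 and 67.1 unscaled tags untreated and 36.9 and 31.6 after LPS. After scaling its log2 change was -0.72 ± 0.18 SE (limma adjusted p = 0.0065). Per kb of called length the same change was 0.00, so the lower tags came with a shorter called region. Pol II was called there in GFP replicate 2 of each condition (17.3 and 22.5 tags) and in no Nur77 library.

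Of the 19420 genes with a region called in all 4 GFP libraries, 512 (2.64%) had a member over or near them. Against that background the counts of 0 to 3 genes in the fixed lists are a description, and none was tested. The list sizes below count every gene of a list, while this background counts only genes with such a region. Such a region was found for 28 NF-kB, 26 lysosome and lipid, 26 cytoskeleton, 36 macrophage and 24 TGF-beta, BMP and WNT genes. In NF-kB signalling and feedback 2 of 28 genes had one: Tnfaip3, which encodes the feedback inhibitor A20, at 35046 bp, and Traf3, an adaptor. Of the lysosome and lipid genes 2 of 27 did, among them Abca1, the cholesterol exporter (18.4 to 25.9 tags). Of the cytoskeleton, adhesion and migration genes 3 of 33 did, with 5 members, among them Mmp12 and Thbs1 (thrombospondin-1; 47.2 and 44.1 tags untreated, 22.9 and 24.1 after LPS). Cd84 was the only one of 38 macrophage genes (13.9 to 28.0 tags), and Tcf7l2, a WNT effector, the only one of 29 TGF-beta, BMP and WNT genes (6.90 to 13.4). No member lay at any of the 18 AP-1 family genes, 25 other immediate-early genes, 32 cytokines and chemokines, 20 chemokine receptors, 29 interferon response genes, 19 C-type lectins, 16 housekeeping genes or 29 markers of other cell types. In that order 17, 25, 27, 16, 23, 14, 16 and 12 of them had a region called in all 4 GFP libraries.

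**Figure D4:**
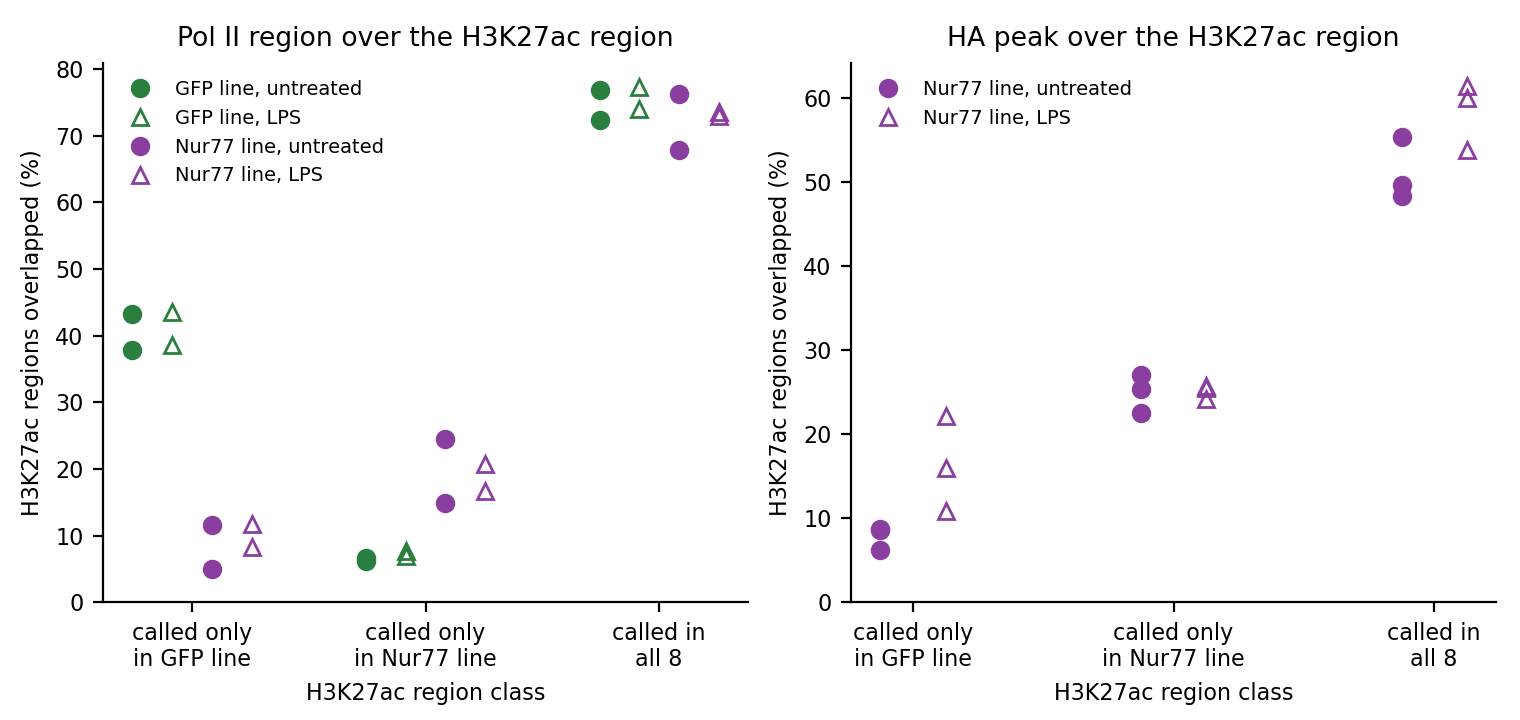
Share of H3K27ac regions (%) overlapped by a Pol II region (left, 8 libraries) or an HA peak (right, 6 libraries), for the regions called only in the GFP line, only in the Nur77 line and in all 8 libraries; each symbol is 1 library. At GFP-only regions Pol II shares are 37.8% to 43.5% in the GFP line and 5.04% to 11.8% in the Nur77 line, and HA shares are 6.22% to 8.74% untreated and 10.9% to 22.2% after LPS.

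Pol II, which the rule did not use, was called over members mostly in the GFP line. Untreated GFP libraries had a Pol II region over 225 and 257 of the 595 members and LPS-treated ones over 230 and 259, while the Nur77 libraries had one over 30 and 69 untreated and 70 and 49 after LPS. The lines did not overlap. At the Nur77-only regions the order was the other way, with 38 to 47 of 607 in the GFP libraries and 90 to 149 in the Nur77 libraries. At regions called in all 8 libraries the shares ran from 67.9% to 77.3% and overlapped between the lines.

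A Pol II region in all 4 GFP libraries was found at 144 members (24.2%, 95% Wilson interval 20.9% to 27.8%), against 61.1% of all regions called in all 4 GFP libraries. All 4 Nur77 libraries had one at 13 members (2.18%, 1.28% to 3.70%), against 56.5%. The shares of members and of all regions were not matched for width or signal. Without untreated Nur77 replicate 1 the other 3 all had one at 21 members (3.53%). That library had the fewest Pol II regions, 27137, and a fragment length of 1550 bp in its header, against 174 to 318 bp in the other Pol II libraries. At 64 members (10.8%) Pol II was called in all 4 GFP and no Nur77 library, against 0.658% of all regions called in all 4 GFP libraries. The reverse pattern was found at 0 members, against 0.0456%. More GFP than Nur77 libraries had a Pol II region at 333 members (56.0%) and fewer at 4 (0.672%). No library had one at 238 (40%). Among regions called in all 8 H3K27ac libraries these shares were 12.8%, 6.89% and 14.4%. Among the Nur77-only regions they were 3.29%, 25.2% and 68.0%. Without chromosome 12 the 4 GFP libraries all had a Pol II region at 128 of 496 members (25.8%) and the 4 Nur77 libraries at 10 (2.02%). Of these 496, 59 had it in all 4 GFP and no Nur77 library.

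In the GFP line Pol II was more frequent at strong members and at starts. Of the 100 strongest members 75 had a Pol II region in at least 1 GFP and 13 in at least 1 Nur77 library. Among the 100 weakest these were 47 and 25. Of the 34 members within 1 kb of a start, 18 (52.9%) had Pol II in all 4 GFP libraries, against 21.8% of the members farther away. Nectin3, an adhesion molecule gene whose start is covered by a member (promoter printed above), had 64.8, 83.7, 83.5 and 89.1 Pol II tags in the GFP libraries. In the Nur77 line Pol II was called there in 2 libraries, at 11.8 untreated and 8.13 after LPS, below all GFP values.

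**Figure D5:**
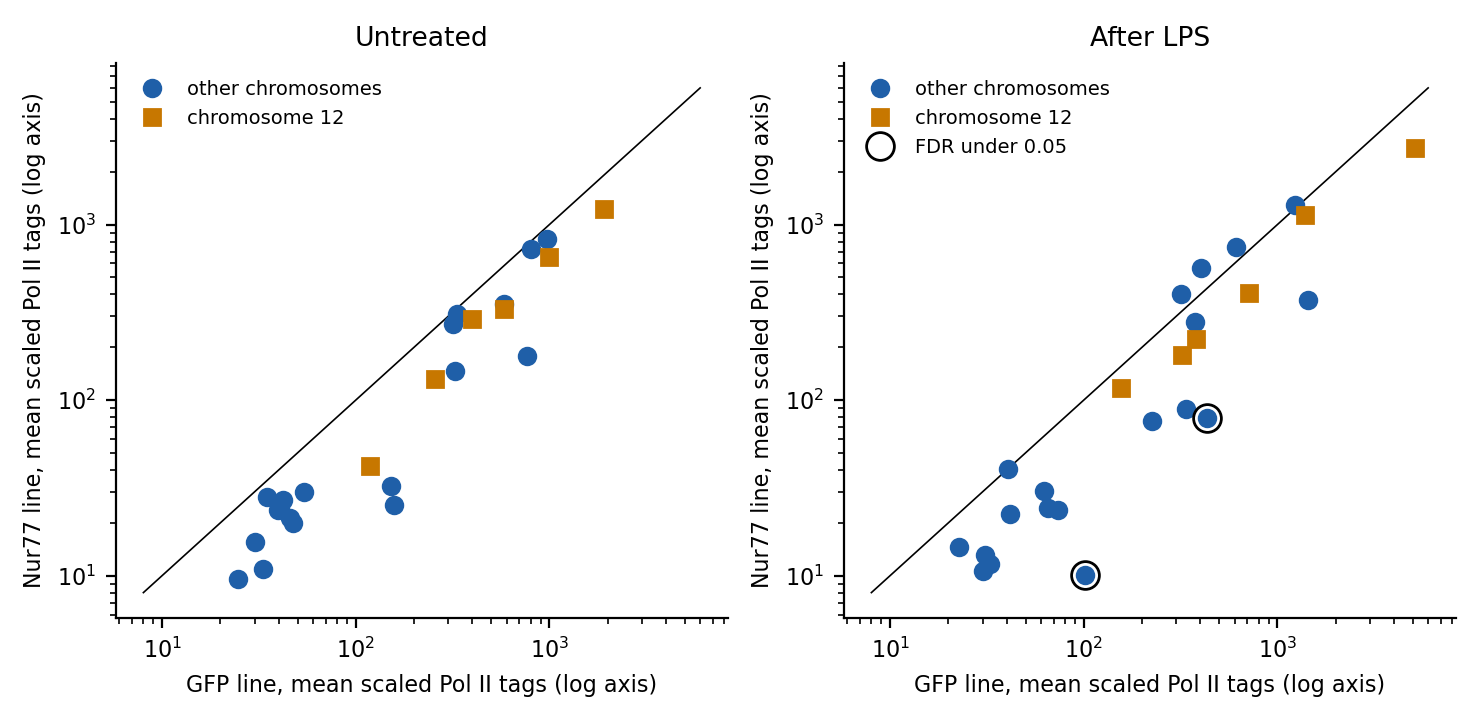
Mean scaled Pol II tags (log axes) in the GFP (x) and Nur77 (y) lines for the 25 Pol II regions that overlap a member and were called in all 8 Pol II libraries, untreated (left) and after LPS (right); the line marks equal values, squares are chromosome 12, and rings mark regions past an FDR of 0.05. All 25 lie below the line untreated and 21 after LPS, where the 2 ringed regions are those of Slc30a1 and Rasgef1a.

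A test of Pol II level needs a value in every library, which 25 merged Pol II regions over members had, 6 of them on chromosome 12. A member got into this set only if Pol II was called around it in the Nur77 line too, so the 25 do not stand for the 595. These Pol II regions were 1519 to 36522 bp long and often reached well beyond the member. In untreated cells all 25 were lower in the Nur77 line, with a median log2 difference of -0.77 against 0.01 for all 17081 regions tested. By limma 0 of the 25 passed an FDR of 0.05, beside 0.17% of all regions (0.0585% lower). After LPS 21 of 25 were lower (median -0.89), and 2 passed, both lower, beside 1.52% of all regions (0.65% lower). Both lie outside chromosome 12. Per kb of called length, 18 of the 25 were lower and 7 higher untreated (median -0.50). After LPS 17 were lower and 8 higher per kb (median -0.21). Same-numbered Pol II libraries deviated together, and with the replicate number as a block in limma 6 of 25 passed untreated, all lower, beside 5.98% of all regions (3.27% lower). With that block 11 passed after LPS, 10 lower and 1 higher, beside 12.8% of all regions. With uncalled values set to 0 in regions called in at least 2 libraries, 55 of 281 untreated and 69 of 281 after LPS were lower, beside 2.47% and 3.79% of all regions, but a region listed only in the GFP line had to differ there and nothing is read from these counts.

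One was the region over the start of Rasgef1a, which encodes a Ras guanine nucleotide exchange factor (chr6:118065156-118067502). Its scaled Pol II tags after LPS were 104.5 and 99.5 in the GFP line and 10.5 and 9.50 in the Nur77 line, and untreated 64.5 and 30.7 against 17.2 and 22.7. All GFP values were higher than all Nur77 values. The difference after LPS was -3.23 ± 0.41 SE on the log2 scale (limma adjusted p = 0.032), and -1.52 per kb of called length (limma adjusted p = 0.038). The member there (chr6:118065568-118066999) had 12.3 to 31.0 H3K27ac tags in the GFP line, and its promoter is printed above.

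The other was a 13.4 kb region over Slc30a1, which encodes a zinc exporter, and 1700034H15Rik (chr1:191902587-191916009). After LPS its scaled tags were 477.7 and 390.8 in the GFP line and 61.6 and 95.5 in the Nur77 line (log2 difference -2.48 ± 0.35 SE, limma adjusted p = 0.033). Untreated values were 297.0 and 353.8 against 99.0 and 194.7. Per kb of called length the difference after LPS was 0.07 (limma adjusted p = 0.97), so the lower tags went with a shorter called length in the Nur77 line. Both calls were lost when either GFP LPS library or any 1 of the 4 Nur77 libraries was left out. Nearly all calls over all regions were lost there too, so the loss was not particular to these 2.

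Pol II at the 25 regions was also compared between LPS-treated and untreated cells of each line. In the GFP line 2 passed, beside 18.6% of all regions (10% higher, 8.55% lower). One was a 36.5 kb region over Ifrd1, an interferon-related developmental regulator, and Lsmem1 on chromosome 12, where scaled tags rose from 1900 and 1906 to 6732 and 3485 (log2 change 1.35 ± 0.28 SE, limma adjusted p = 0.015). The other, over Gm34542, fell from 586.7 and 576.3 to 359.7 and 388.3 (log2 change -0.64 ± 0.14 SE, limma adjusted p = 0.020). In the Nur77 line 3 rose, beside 30.2% of all regions (15.2% higher, 15% lower): Ifrd1 again (1267 and 1187 to 2720 and 2751, log2 1.16), Rps7, a ribosomal protein gene (662.3 and 636.4 to 977.8 and 1277, log2 0.78), and Wipi2, an autophagy gene (295.2 and 248.2 to 647.5 and 480.2, log2 1.04), with limma adjusted p of 0.018, 0.016 and 0.0062. Without scaling factors 1 rose and 3 fell in the Nur77 line, where the median of all regions was then -0.40 and 35.6% of them passed (1411 higher, 4669 lower), so these directions rest on the scaling. In the GFP line, with a median of -0.15, 1 rose and 2 fell, beside 18.7% of all regions. With the replicate block 7 of 25 passed in the GFP line, beside 35.5% of all regions, and 12 in the Nur77 line, beside 47.9%. No change in either line passed with tags per kb of called length. In the Wipi2 member itself a Pol II call was present in 1 of 8 libraries, so this change belongs to the wider Pol II region. No difference in LPS response between the lines passed at any of the 25 by limma's interaction term, beside 0% of all regions.

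In the GFP line, where members had H3K27ac values in all 4 libraries, 136 of 595 (22.9%) changed with LPS by limma at an FDR of 0.05, beside 49.8% of all 30694 regions tested. There were 88 higher and 48 lower, beside 25.1% and 24.6% of all. Members had a median of 14.1 tags, against 83.9 in regions called in all 8 libraries, and these shares were not matched for signal. Whether members changed less often than regions of like signal was not tested. The median log2 change of members was 0.23, and that of all regions was 0.00. Without scaling factors, which moves the median of all regions by -0.31, the split was 47 higher and 89 lower, so the balance of directions rests on the scaling. The count was 86 without untreated GFP replicate 1, where 37.7% of all regions passed. Outside chromosome 12, 120 of 496 passed, beside 50.3% of all regions there.

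The largest rise was in Cdh4, the R-cadherin gene (chr2:179512636-179515394), from 8.71 and 5.71 scaled tags to 90.9 and 65.3 (log2 change 3.27 ± 0.29 SE, limma adjusted p = 4.8e-06). Pol II over it was 7.77 in 1 untreated GFP library and 69.4 and 73.3 after LPS, with no call in the Nur77 line. Both marks were thus low or not called before LPS and high after it in the GFP line. HA was called there in 2 of 3 LPS libraries (37.7 and 12.1 tags) and in no untreated one. Further rises were at chr1:164631209-164633445, with no gene within 50 kb (log2 2.40), in Trat1, the gene of a T cell receptor-associated adaptor (2.36), in Cald1, which encodes caldesmon (2.22), and 39802 bp from Gm34177 (2.20).

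The largest falls were in Mamld1 (32.3 and 25.7 scaled tags untreated, 7.96 and 7.85 after LPS, log2 -1.74) and at the Sorl1 start (42.7 and 34.8 untreated, 11.5 and 11.0 after LPS, log2 -1.69), with limma adjusted p of 0.00066 and 0.00033. Maml2, a Notch coactivator gene (-1.49), 8430429K09Rik (-1.40) and Nsd1, a histone H3 lysine 36 methyltransferase gene (-1.40), followed. Per kb of called length the change was 0.00 at Mamld1 and -0.02 at Maml2, against -1.11 at the Sorl1 start and -0.74 at Nsd1. At Mamld1 and Maml2 the lower tags therefore came with a shorter called region, and at Sorl1 and Nsd1 the density was lower too. Pol II at Nsd1 was 76.6 and 66.4 untreated and 56.1 and 35.7 after LPS in the GFP line, with no Nur77 call.

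HA-Nur77 peaks, measured only in the Nur77 line where members had no called H3K27ac, overlapped 160 members in at least 1 of 6 libraries (26.9%, 95% Wilson interval 23.5% to 30.6%). Over all regions called in all 4 GFP libraries the share was 72.4%, and over the Nur77-only regions it was 37.1%. These shares were not matched for width or signal. Members were narrower than regions called in all 8 libraries (median 1319 against 3080 bp) and had fewer tags. All 6 libraries had a peak at 18 members (3.03%), against 32.5% of regions called in all 8 H3K27ac libraries and 15.8% of Nur77-only regions. Without chromosome 12, 146 of 496 members (29.4%) had an HA peak. Pol II was called in all 4 GFP libraries at 35 of the 160 members with HA (21.9%) and at 109 of the 435 without (25.1%). With no HA library of the GFP line, background of the HA antibody at members was not measured.

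More members had an HA peak after LPS than before. The 3 untreated libraries had one at 37, 52 and 51 members and the 3 LPS libraries at 65, 132 and 95, with no overlap between the conditions. Each LPS library was deeper, and had a lower lowest peak value, than the untreated one of the same number. It also listed more peaks (22690, 28562 and 28680 against 19900, 19684 and 25497). How much of the difference in counts comes from this was not tested. At the Nur77-only regions the counts were 154, 137 and 164 untreated and 147, 155 and 156 after LPS, and did overlap. At regions called in all 8 H3K27ac libraries the shares were 48.3% to 55.4% untreated and 53.8% to 61.5% after LPS. At 13 members HA was called in all 3 LPS and no untreated library, beside 2.1% of all regions called in all 4 GFP libraries, and at 0 members in the reverse, beside 0.329%. Read as a share, 13 of 595 is close to that background. Without LPS replicate 2, which had the most, 128 members had a peak in at least 1 library.

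The strongest HA signal at a member was at the start of Kcnip1, which encodes a potassium channel interacting protein (chr11:33679280-33680717). Its scaled HA tags were 140.5, 83.9 and 166.5 untreated and 35.3, 37.7 and 64.5 after LPS, all LPS values being lower than all untreated ones. The means were 130.3 ± 42.3 and 45.9 ± 16.2 (SD, n = 3), and the log2 change was -1.48 ± 0.34 SE (limma adjusted p = 0.039). H3K27ac in the GFP line was 14.6 to 23.2 tags, and Pol II was called in 1 GFP library. The printed Kcnip1 promoter holds no NBRE match, but its window lies outside the HA region (chr11:33679301-33680320). Sequence under the HA region was not searched.

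Among 19 HA regions at members with a peak in all 6 libraries, 5 of them on chromosome 12, 3 passed in limma, 2 higher and 1 lower after LPS, beside 4.64% of 11234 regions tested (3.28% higher, 1.35% lower). The region 35 kb from Tnfaip3 (chr10:18964544-18965560) rose from 28.2, 22.3 and 34.1 to 98.3, 56.1 and 80.2 scaled HA tags (log2 change 1.42 ± 0.30 SE, limma adjusted p = 0.028). A region in Ankrd55 (chr13:112317804-112318844) rose from 18.8, 24.8 and 17.4 to 48.4, 43.2 and 41.6 (log2 change 1.10 ± 0.24 SE, limma adjusted p = 0.033). In both the conditions did not overlap. At the Tnfaip3 member H3K27ac was 10.4 to 17.6 tags in the GFP line and no library had a Pol II region. With the replicate number as a block, 6 of the 19 passed (4 higher, 2 lower), among them Eml1, while 40.4% of all regions tested did. None of the 19 passed without scaling factors, beside 6 of all 11234 regions. None passed when untreated replicate 1, untreated replicate 3 or LPS replicate 1 was left out, beside 0%, 0.70% and 0% of all regions. Without LPS replicate 3, 1 passed, beside 1.44%. With uncalled values set to 0 in regions called in at least 2 HA libraries, 15 of 110 were higher after LPS, beside 7.38% of all, but a region listed only after LPS could only come out higher there and nothing is read from this count.

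The other members with the highest HA signal were in Eml1, a microtubule-associated protein gene, and near Vrk1, a kinase gene, both on chromosome 12, and in the T cell receptor beta locus. At Eml1 scaled HA tags were 73.4, 63.3 and 52.3 untreated and 91.3, 81.7 and 72.9 after LPS, a change that did not pass (limma adjusted p = 0.45; 0.043 with the replicate block). Near Vrk1 they were 45.2, 46.2 and 50.9 untreated and 70.7, 59.1 and 57.0 after LPS (limma adjusted p = 0.43; 0.071 with the block). In both regions all LPS values were above all untreated ones. H3K27ac in the GFP line was 7.25 to 13.7 tags at Eml1 and 9.47 to 20.3 near Vrk1, beside a median of 14.1 over members. HA was measured in the Nur77 line. The Tcrb member had 40.6 to 78.7 untreated and 35.6 to 63.8 LPS tags of HA before scaling, and these overlapped.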

How the data were processed

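Peak lists of 26 libraries were used as the authors deposited them. The submitters' processing notes name HISAT2 2.1.0, HOMER and the build mm10. Per the file headers, H3K27ac and Pol II regions were called in histone style and HA peaks in factor style, without input, and 3 H3K27ac libraries (replicate 1 of GFP untreated, of GFP LPS and of Nur77 untreated) lacked the option disabling the local filter. The header of untreated HA replicate 3 names unfiltered tags, unlike the others. The deposited signal is a normalized tag count, given by the authors per 10 M mapped tags.

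The members and lists were chosen with earlier results of these data known. Regions of one target were merged at 1 bp overlap, and tags of a library's regions in a merged region were summed. Regions with a value in every library were tested with limma 3.58.1 (R 4.3.3, trend) on log2 of tags plus 1, after scaling by trimmed means of M-values (30% and 5% trimmed), with Benjamini-Hochberg adjustment over all regions and an FDR of 0.05. HA scaling factors of replicate 3 were 0.57 and 0.62, against 1.21 to 1.33 for the others. Same-numbered HA libraries deviated together (correlation 0.48 to 0.83 in all 3 pairs), as did same-numbered Pol II libraries (0.35 to 0.63 in all 6 pairs of groups, each with 2 libraries). Counts with the replicate block are therefore given beside HA and Pol II results. Gene spans and promoters came from RefSeq GRCm38.p6. A region's gene overlaps it within 1 kb or is the nearest within 50 kb, called near.

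Named were the 10 strongest members, members under changed Pol II regions, the 5 with most HA, the 5 clusters with most members, the 3 strongest members per list, the 5 largest H3K27ac LPS changes per direction, and the 3 weakest members with the 5 strongest regions called in exactly 1 Nur77 library. Examples outside this rule (Nectin3, Akr1b7, Ankrd55, Kcnip1's promoter and smaller clusters at Cpe, Cdsn and Mmp12) were chosen after their values were seen. Intervals on shares cover counting error only. Region sequences were not used here. Values of some listed genes are not reported here. The tests were tried on simulated data.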

Additional observations from a re-analysis of the deposited data

How the results depend on the processing

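The number of members stayed within 1.5 times of 595 in all settings run (496 without chromosome 12, 545 without those over an input region, 588 with gaps of 500 bp joined, 697 with lists of equal length, 674 to 808 with 1 library left out). Leaving out 1 library drops a condition of the rule, which favours a higher count. Leaving out chromosome 12 or members over an input region could only lower it. The count does not show whether the same regions remained. Settings without chromosome 12 were chosen after seeing the data. The cause of each shift below was not tested. HA peaks in all 6 libraries were at 3.03% of members, and without HA LPS replicate 2 the share with at least 1 was 21.5% (21.5% to 26.9% with 1 library left out). Pol II in at least 1 library was at 59.5% of members in the GFP and 20.2% in the Nur77 line.

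Regions called in at least 2 libraries, with uncalled ones set to 0, were also tested. Of 281 Pol II regions at members, 55 (lines, untreated), 69 (after LPS), 23 (LPS in GFP) and 6 (LPS in Nur77) then passed. They stood beside 3.23%, 5.43%, 15.0% and 18.8% of all regions. HA gave 15 of 110, beside 8.65%, and H3K27ac gave 55 of 595, beside 38.8%. Without chromosome 12 the Pol II counts were 49, 60, 18 and 4 of 243, beside 2.92%, 5.03%, 15.0% and 19.0%. HA then gave 14 of 100, beside 8.64%, and H3K27ac 48 of 496, beside 39.4%. A member that passed through the GFP line alone had to differ there. A region listed only after LPS could only come out higher. Nothing is read from these Pol II and HA counts. With the replicate block, Pol II counts were 6, 11, 7 and 12 of 25, beside 5.98%, 12.8%, 35.5% and 47.9% of all regions. HA gave 6 of 19, beside 40.4%. GFP H3K27ac libraries did not deviate together by number (correlation -0.05), and the block gave 134 of 595, beside 48.3% of all regions. With tags per kb, Pol II counts were 0, 1, 0 and 0 of 25, beside 0.146%, 0.176%, 7.17% and 12.2% of all regions. H3K27ac then gave 97 of 595, with 80 higher, beside 37.5% of all regions (17.9% higher). HA without scaling gave 0 of 19, beside 0.0534%. The Pol II LPS count in GFP was 1 of 19 without chromosome 12 and 1 of 20 without input regions, beside 18.6% and 16.9% of all regions. In Nur77 it was 1 of 19 without chromosome 12, beside 30.3%. With 1 library left out, counts ran from 0 to 2 for Pol II between the lines after LPS and for LPS in GFP, from 0 to 5 for LPS in Nur77, from 0 to 3 for HA and from 86 to 136 for H3K27ac. A group left with 1 library is assumed to vary like the others. The lowest deposited values were 4.94 to 5.60 tags for H3K27ac, 5.26 to 6.73 for Pol II and 7.4 to 17.1 for HA, so signals under these were not detectable.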
